A study of Mus musculus with 6 samples.

Results

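The genes described here are 9 that serve signalling from the receptor RANK and the work of the osteoclast, the cell that resorbs bone: Tnfrsf11a, Traf6, Nfatc1, Src, Acp5, Car2, Tcirg1, Clcn7 and Ostm1. They were chosen by symbol, and each was 1 of the 16665 rows of the deposited expression table. The table holds mRNA levels of RAW264.7, an established mouse line of monocyte-macrophage leukaemia cells, in 2 groups of 3 libraries. All 6 samples were transfected: 3 received a miR-125b mimic, an RNA made to act as that microRNA (labelled as miR-125b overexpression), and 3 a negative control (labelled as wild type for miR-125b). No allele, dose, time after transfection or differentiating agent is given in the labels, and they do not say whether the 3 libraries of a group came from separate cultures. P-values therefore measure the spread between these libraries, which may be technical. The level of the microRNA itself was not analysed here.

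RANK, the product of Tnfrsf11a, is a receptor of the TNF receptor family on myeloid precursors. Its ligand RANKL makes it recruit the adaptor and ubiquitin ligase TRAF6, which activates the kinase TAK1 and through it NF-kB and MAP kinases. Calcium signals from receptors that carry ITAM adaptors join in and drive NFATc1, the transcription factor that commits the cell to the osteoclast programme. The mature cell seals off bone with a cytoskeleton that needs the kinase SRC, and acidifies the space beneath it. Carbonic anhydrase 2 supplies the protons, the vacuolar proton pump (V-ATPase) with the a3 subunit encoded by Tcirg1 moves them, and the chloride-proton exchanger ClC-7 with its partner OSTM1 balances the charge. Acp5 encodes TRAP, the tartrate-resistant acid phosphatase by which osteoclasts are stained. RAW264.7 cells are a common model of osteoclast formation because RANKL turns them into osteoclast-like cells, and nothing in the labels says that RANKL was added here.

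The mature miR-125b-5p sequence is shown first, because a mimic of that arm would act through its seed (bases 2 to 8, in capitals), which pairs with complementary sites in the 3′ untranslated regions (3′ UTRs) of mRNAs. The labels do not say which arm the mimic holds. The sequence is RefSeq's on GRCm38.p6, and 2 genes encode it, at chr9:41581940-41581961 and chr16:77646279-77646300, both on the plus strand.
miR-125b-5p: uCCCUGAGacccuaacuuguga

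Each gene's longest 3′ UTR in GENCODE release M21 (GRCm38) was searched on the transcript strand for 3 motifs: the 8mer CTCAGGGA, the 7mer-m8 CTCAGGG and the 7mer-A1 TCAGGGA. An 8mer holds both 7mers and is counted once, as an 8mer. Of the 9 genes, 4 held at least 1 site: Traf6 (an 8mer and a 7mer-m8), Src (an 8mer and a 7mer-A1), Nfatc1 (a 7mer-m8) and Clcn7 (a 7mer-A1). Among the 9313 tested genes with an annotated 3′ UTR, 22.2% held a site and 5.32% an 8mer. The 4 genes had 3′ UTRs of 1573 to 4170 bases, against a median of 1150 over tested genes. The 8mer windows of Traf6 and Src and the 7mer-A1 window of Clcn7 are shown with the site in capitals, so that the values below can be read against them. They lie at chr2:101698828-101698857, chr2:157470971-157471000 and chr17:25160969-25160998, all on the plus strand of GRCm38.
Traf6 8mer: ggagtctagttCTCAGGGAgccctacgact
Src 8mer: ggactccctaaCTCAGGGAgggaggggagg
Clcn7 7mer-A1: agcaggctctgTCAGGGAacccacatgtgc
A match of letters is not evidence of binding. No site was found in Tnfrsf11a, Acp5, Car2, Tcirg1 or Ostm1.

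Values are FPKM (fragments scaled to gene length and library depth). That scaling does not remove every difference between libraries, such as the dependence on GC given below. Comparisons between genes or libraries carry this limit. Depth, recovered from the steps of the low values, lay between 14445600 and 16813200 fragments per library. Negative control 3 stood apart: 13266 genes were above 0 in it against 15141 to 15470 in the other 5 libraries. Across the tested genes its log2 values correlated with those of negative controls 1 and 2 at 0.944 and 0.946, and with those of the mimics at 0.962 to 0.974, while negative controls 1 and 2 correlated with each other at 0.993 (Pearson's r across genes, which are not independent replicates). Of the 7 macrophage markers, all were above 1 FPKM on average, and their summed level was 7117 to 8591 FPKM in controls and 6356 to 6626 with the mimic. Lyz2 made up most of that sum (5720 to 7838 FPKM) and was the 1 marker of the 7 whose groups did not overlap. Osteoclast markers were mostly low: of 7, 2 reached 1 FPKM (the fusion protein Dcstamp and the pump subunit Atp6v0d2), with summed levels of 17.5 to 28.0 FPKM in controls and 19.6 to 25.8 with the mimic. Ctsk, Mmp9, Ocstamp and Itgb3 stayed below 1 FPKM on average, and Calcr was not among the rows. Of 7 fibroblast and osteoblast markers 3 were among the rows (summed 0.988 to 1.52 and 1.39 to 1.60 FPKM, nearly all Runx2). Of 5 lymphocyte markers 1 was (at most 0.484 FPKM), and of 4 neutrophil markers 2 were (at most 0.726 FPKM). The part of these marker levels in the results was not tested. In libraries from whole cultures, fewer cells with a transcript and less transcript per cell cannot be told apart.

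Within the 9 genes the levels spanned a wide range. Averaged over 6 libraries, Car2 was highest at 89.7 FPKM (range 79.9 to 103.6) and Tcirg1 next at 46.8 (37.1 to 55.8). These 2 and Src, at 0.111 FPKM (0.0147 to 0.238), did not overlap with any other of the 9. Nfatc1 (14.1 FPKM), Clcn7 (13.3) and Tnfrsf11a (12.4) overlapped with each other, and their order held in 4 of 6 libraries at each step. Traf6 (7.10 FPKM), Ostm1 (5.52) and Acp5 (3.74) followed, all 3 below Tnfrsf11a in every library. Traf6 exceeded Ostm1 in all 6 libraries although their ranges overlapped, and Ostm1 exceeded Acp5 in 5. Among the 10166 genes with a mean of at least 1 FPKM, which were those tested, Car2 lay at percentile 96.1 by level, Tcirg1 at 91.6 and Acp5 at 28.8. Each of the 8 tested genes rested on 66 to 4004 recovered fragments per library.

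Of the 9 genes 8 passed the filter and were tested, and 0 passed an adjusted p of 0.05 (limma on log2(FPKM + 1), two-sided, adjusted over all 10166 genes). Over all tested genes 0 passed as well (0%), and voom, limma's method for counts, called 0 on the recovered fragments. Before adjustment 1 of the 8 was higher at p under 0.05 (Tnfrsf11a) and 0 were lower, where 7.96% of all tested genes were higher and 5.26% lower. Values of the 3 mimic libraries lay wholly above those of the 3 controls in 1 of the 8 (Tnfrsf11a; 12.6% of tested genes) and wholly below in 1 (Car2; 7.49%). These shares are near the background. The log2 fold change, mimic minus control, was positive in 5 and negative in 3, with a median of 0.092 against 0.041 over all tested genes, of which 56.3% were positive.

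**Figure D1:**
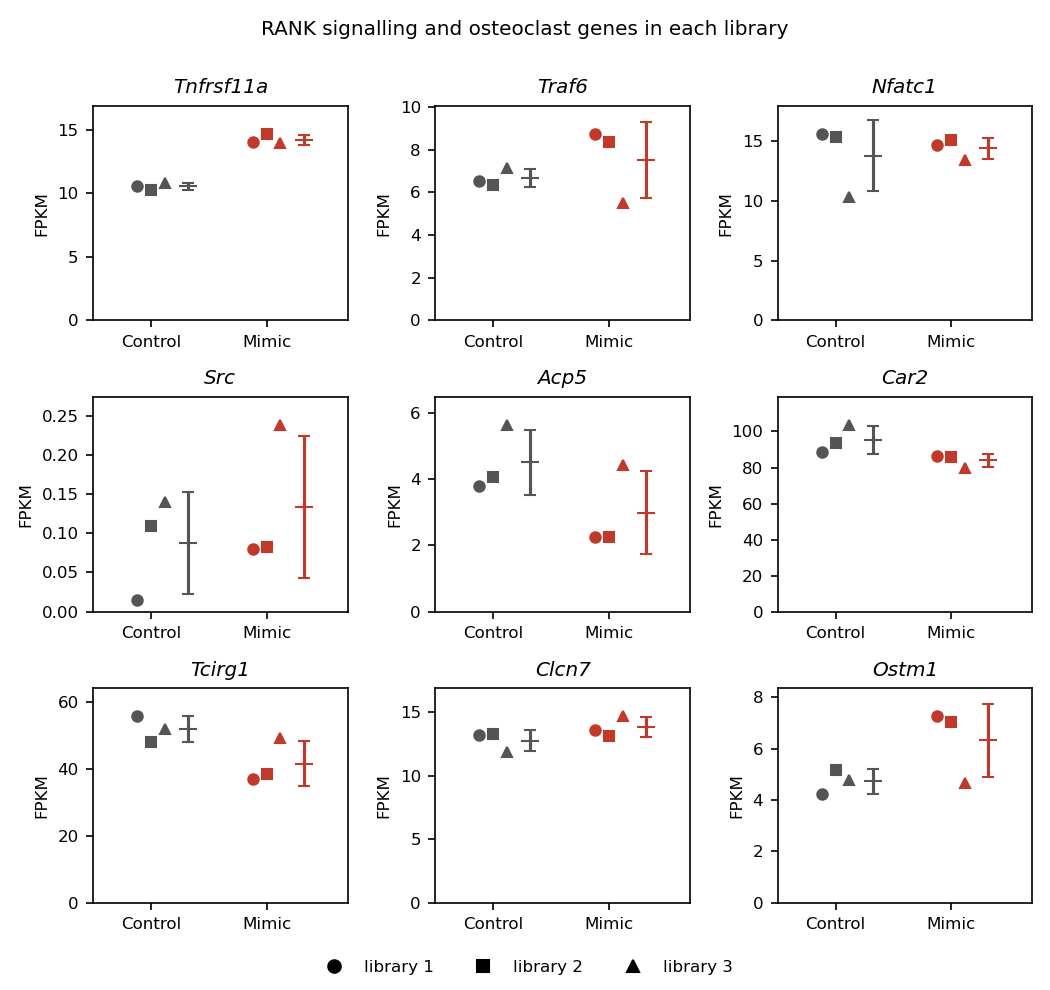
FPKM (vertical axes, each from 0) of the 9 genes in the 3 negative control libraries (grey) and the 3 miR-125b mimic libraries (red). Symbols mark library numbers 1 to 3, and the bar beside each group is its mean ± SD. Tnfrsf11a shows 2 tight, separate groups, while in Ostm1, Acp5 and Tcirg1 mimic 3 sits among the controls and in Traf6 below them.

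The receptor itself, Tnfrsf11a (ENSMUSG00000026321, chromosome 1, 105780718 to 105847981, plus strand), was the member with the clearest separation. It read 10.6, 10.3 and 10.8 FPKM in negative controls 1, 2 and 3, and 14.1, 14.7 and 13.9 FPKM in mimics 1, 2 and 3. Every mimic library was above every control, negative control 3 lay with the other controls, and the spread within each group was under 3% of its mean (2.52% and 2.81%). The means were 10.6 ± 0.266 and 14.2 ± 0.400 FPKM (SD, n = 3), a ratio of 1.35 and a log2 fold change of 0.40 (SE 0.10, 95% interval 0.16 to 0.64, limma adjusted p = 0.333). By p it ranked 150 of the 10166 tested genes, so it did not pass. Without negative control 3 it did (0.41, limma adjusted p = 0.0153), as did 23.7% of all tested genes (11.5% higher, 12.1% lower). After the dependence of each library on transcript length and GC was subtracted (the GC and length correction), the estimate was 0.27 (limma adjusted p = 0.515) and the groups still did not overlap. With this subtraction and negative control 3 left out as well it was 0.33 and missed the threshold (limma adjusted p = 0.0727; 2.93% of all tested genes passed).

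Traf6 (ENSMUSG00000027164, chromosome 2, 101678429 to 101701669, plus strand), the adaptor that RANK shares with Toll-like and interleukin-1 receptors, carries the 8mer shown above. It read 6.55, 6.35 and 7.13 FPKM in the controls and 8.74, 8.35 and 5.48 FPKM in the mimics. Mimics 1 and 2 were the highest of the 6 libraries and mimic 3 the lowest. The means were 6.68 ± 0.409 and 7.52 ± 1.78 FPKM (SD, n = 3), with a log2 fold change of 0.13 (SE 0.18, 95% interval −0.28 to 0.54, limma adjusted p = 0.764). The interval includes a modest fall as well as a rise. Without mimic 3 the estimate was 0.32 (limma adjusted p = 0.315), without mimic 1 it was 0.022, and after the GC and length correction it was −0.075 (limma adjusted p = 0.921). As a share of the summed FPKM of the 7 TRAF genes, Traf6 made up 13.03%, 13.3% and 14.9% in controls and 18.7%, 18.1% and 12.5% in mimics, again with mimic 3 below the controls. The ratio of Tnfrsf11a to Traf6 was 1.62, 1.62 and 1.51 in controls and 1.61, 1.76 and 2.54 in mimics, so the groups overlapped and mimic 3 stood highest. After the GC and length correction the mimics lay wholly above the controls (1.65 to 2.63 against 1.51 to 1.58).

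Around the receptor, a list of 21 ligands, adaptors and kinases of the pathway had 19 members among the rows and 18 tested. None passed limma (0 of 18). Before adjustment 2 were higher at p under 0.05 and 0 lower, where 7.96% and 5.26% of all tested genes were, and the median log2 fold change was 0.12. The 2 were partners in one complex. Map3k7, which encodes TAK1, read 14.1, 14.2 and 13.1 FPKM in controls and 18.2, 18.6 and 17.8 in mimics (log2 fold change 0.38, SE 0.10, limma adjusted p = 0.333). Tab2, the TAK1-binding adaptor, read 27.0, 26.8 and 29.7 FPKM and 36.2, 35.3 and 33.3 (0.32, SE 0.10, limma adjusted p = 0.333). In both the mimic libraries lay wholly above the controls. Of the 18, 2 lay wholly above and 1 wholly below, where 12.6% and 7.49% of all tested genes did. The 1 below was the NF-kB subunit Rela (log2 fold change −0.25), named after its values were seen. After the GC and length correction Map3k7 stood at 0.17 and Tab2 at 0.23, and the list's median at −0.0073. Without negative control 3 both Map3k7 and Tab2 passed limma (0.34, adjusted p = 0.0221, and 0.36, adjusted p = 0.0181). In that setting 4 of the 18 were called higher and 3 lower, where 11.5% and 12.1% of all tested genes were. With the GC and length correction as well neither Map3k7 nor Tab2 passed limma (0.12, adjusted p = 0.366, and 0.33, adjusted p = 0.0525). Tnfsf11, the gene of RANKL, and Tnfrsf11b, that of its decoy receptor osteoprotegerin, were not among the rows. In the TRAF family 0 of 6 tested genes passed (median 0.030), and the 2 with the smallest p other than Traf6 were Traf7 (−0.21, SE 0.14) and Traf4 (−0.25, SE 0.26). The size of both estimates depended on which library was left out. Without negative control 3 Traf7 stood at −0.098 and Traf4 at −0.55, which passed (limma adjusted p = 0.0212), where 12.1% of all tested genes were called lower. Without negative control 1 Traf4 stood at −0.080. After the GC and length correction it stood at −0.12 (limma adjusted p = 0.867). With this correction and negative control 3 left out Traf4 did not pass (−0.28, limma adjusted p = 0.213).

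Nfatc1 (ENSMUSG00000033016, chromosome 18), the factor at the end of this cascade, did not differ detectably. It read 15.6, 15.4 and 10.3 FPKM in controls and 14.6, 15.1 and 13.4 FPKM in mimics. Negative control 3 was the lowest of the 6 libraries, and the other 5 lay within the range 13.4 to 15.6 FPKM. The means were 13.8 ± 2.97 and 14.4 ± 0.868 FPKM (SD, n = 3), with a log2 fold change of 0.079 (SE 0.17, 95% interval −0.32 to 0.48, limma adjusted p = 0.860). Without negative control 3 the sign turned (−0.10, 95% interval −0.31 to 0.10, limma adjusted p = 0.418).

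Nfatc1 was not the most abundant NFAT gene. Nfat5, the osmotic stress member of the family, read 53.9, 55.02 and 81.5 FPKM in controls and 96.0, 96.1 and 94.8 in mimics (log2 fold change 0.61, SE 0.17, limma adjusted p = 0.333). Its mimic libraries were wholly above the controls and nearly level with each other. Nfatc1 was 19.8%, 19.2% and 10.4% of the summed NFAT FPKM in controls and between 11.4% and 12.4% in mimics, so negative control 3 resembled the mimics. For Nfatc3 the estimate was 0.29 (SE 0.16). In the family 0 of 4 tested genes passed limma (median 0.18). Without negative control 3, 1 did, higher (Nfat5, 0.80, limma adjusted p = 0.00425), where 11.5% of all tested genes were called higher. After the GC and length correction Nfat5 stood at 0.25 with all 6 libraries. With negative control 3 left out as well it stood at 0.35 and passed (limma adjusted p = 0.0452), as did 2.93% of all tested genes.

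Upstream of NFATc1, the estimates of both ITAM adaptors were negative, and neither passed with all 6 libraries. Tyrobp (DAP12) read 218.5, 249.9 and 199.8 FPKM in controls and 170.9, 172.3 and 168.2 in mimics (log2 fold change −0.38, SE 0.12, limma adjusted p = 0.333). Fcer1g (the Fc receptor gamma chain) read 219.6, 244.9 and 232.0 FPKM and 190.3, 208.7 and 174.8 (−0.28, SE 0.12, limma adjusted p = 0.368). In both the mimic libraries lay wholly below the controls. In a list of 14 they were the 2 genes lower at p under 0.05 before adjustment (12 tested, 0 passed, median −0.040), where 5.26% of all tested genes were lower at that level. Of the 12, 2 lay wholly below the controls and 1 wholly above, where 7.49% and 12.6% of all tested genes did. Quantile normalization brought Tyrobp to −0.17 and Fcer1g to −0.056. Without negative control 3 Tyrobp passed (−0.45, limma adjusted p = 0.0124). In that setting 1 of the 12 was called higher and 3 lower, where 11.5% and 12.1% of all tested genes were. After the correction Tyrobp and Fcer1g stood at −0.20 and −0.15. With negative control 3 left out as well Tyrobp stood at −0.16 and did not pass (limma adjusted p = 0.334). Among 14 transcription factors and repressors of the osteoclast 11 were tested and 0 passed (median −0.11). Jun, an AP-1 subunit that works with NFATc1, stood at −0.49 (SE 0.19), with 24.3, 22.7 and 37.8 FPKM in mimics against 36.0 to 40.9 in controls. Mitf, which acts on Acp5 and Ctsk in osteoclasts, read 23.9, 24.4 and 34.2 FPKM in controls and 34.6, 33.8 and 31.4 in mimics (0.28, SE 0.16). Without negative control 3, 1 of the 11 was called higher and 4 lower, where 11.5% and 12.1% of all tested genes were. Mitf was the 1 called higher (0.44, limma adjusted p = 0.0117). After the GC and length correction it stood at 0.067 (limma adjusted p = 0.912), and with both changes at 0.18 (limma adjusted p = 0.170).

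Src (ENSMUSG00000027646, chromosome 2, 157418444 to 157471862, plus strand), the kinase whose loss stops osteoclasts from forming a ruffled border, was close to the limit of detection in this line. It read 0.0147, 0.109 and 0.140 FPKM in controls and 0.0792, 0.0827 and 0.238 FPKM in mimics. These are 1, 8 and 9 recovered fragments against 5, 6 and 16, and the groups overlapped. The exact 95% Poisson intervals ran from 0.0253 to 5.57 fragments for the lowest library and from 9.15 to 26.0 for the highest. They cover counting error alone, and fragments without molecular identifiers are not independent molecules. The mean difference on the log2(FPKM + 1) scale was 0.058 (exact two-sided permutation test, p = 0.60, n = 3 per group, smallest possible p 0.1). Its 8mer can therefore not be read against a change at this depth. Src made up 0.0307% to 0.329% of the summed FPKM of its kinase family in controls and 0.172% to 0.615% in mimics. The family was led by Lyn (23.9 ± 0.888 and 23.6 ± 1.23 FPKM, SD, n = 3), with Fyn (9.85 and 9.35 FPKM) next.

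In the list of 15 SRC family kinases and partners 11 were tested and 0 passed, with a median of −0.016. Before adjustment 2 were higher at p under 0.05 and 0 lower, against 7.96% and 5.26% of all tested genes. Cbl, a ubiquitin ligase and SRC substrate, read 26.5, 26.6 and 21.6 FPKM in controls and 37.6, 34.8 and 32.8 in mimics (log2 fold change 0.48, SE 0.13, limma adjusted p = 0.333). Vav3, an exchange factor of osteoclasts, read 14.9, 15.6 and 16.9 FPKM and 20.2, 19.5 and 17.8 (0.26, SE 0.11, limma adjusted p = 0.368). In both the mimics lay wholly above the controls. Of the 11, 2 lay wholly above and 0 wholly below, where 12.6% and 7.49% of all tested genes did. After the correction Cbl and Vav3 stood at 0.22 and 0.097. Without negative control 3 both passed (Cbl 0.39, limma adjusted p = 0.0214, and Vav3 0.31, limma adjusted p = 0.0441). In that setting 3 of the 11 were called higher and 1 lower, where 11.5% and 12.1% of all tested genes were. With both changes neither Cbl nor Vav3 passed (0.13 and 0.15).

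None of the 4 genes of acid secretion passed, and the estimates were negative for Car2 and Tcirg1 and positive for Clcn7 and Ostm1. Car2 (ENSMUSG00000027562, chromosome 3, 14886273 to 14900770, plus strand) read 88.9, 93.4 and 103.6 FPKM in controls and 86.3, 85.8 and 79.9 FPKM in mimics. The mimic libraries lay wholly below the controls, by a margin of 88.9 to 86.3 FPKM at the nearest pair. The means were 95.3 ± 7.54 and 84.0 ± 3.56 FPKM (SD, n = 3), a ratio of 0.882 and a log2 fold change of −0.18 (SE 0.11, 95% interval −0.43 to 0.078, limma adjusted p = 0.502). The difference did not pass, and after the correction it was −0.11 and the groups overlapped.

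Car2 was the main carbonic anhydrase. It made up 60.6%, 61.1% and 65.9% of the summed FPKM of the family in controls and 58.9%, 58.4% and 55.8% in mimics, so the mimics were wholly lower (exact two-sided permutation test, p = 0.10, the smallest possible; adjusted p = 0.30 over 9 ratios). After the correction the groups overlapped. Car12, a membrane enzyme, was second at 37.6 ± 1.35 and 39.6 ± 2.30 FPKM (SD, n = 3). Car5b, a mitochondrial enzyme, had the smallest p of the others, at 6.16, 6.90 and 6.31 FPKM in controls and 8.80, 9.20 and 7.21 in mimics (log2 fold change 0.33, SE 0.13, limma adjusted p = 0.360), and Car13 stood at 0.14 (SE 0.14). Of 16 listed anhydrases 6 were tested and 0 passed (median 0.088).

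Tcirg1 (ENSMUSG00000001750, chromosome 19, 3896050 to 3907133, minus strand) read 55.8, 48.2 and 51.8 FPKM in controls and 37.1, 38.4 and 49.3 FPKM in mimics. Mimics 1 and 2 were below every control, and mimic 3 lay between negative controls 2 and 3. Between libraries of the same number, which no label gives as pairs, the log2 difference was −0.58, −0.32 and −0.070. The means were 51.9 ± 3.81 and 41.6 ± 6.70 FPKM (SD, n = 3), a ratio of 0.801 and a log2 fold change of −0.32 (SE 0.14, 95% interval −0.65 to 0.0059, limma adjusted p = 0.384). After the GC and length correction the estimate shrank to −0.15 (limma adjusted p = 0.845).

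The proton pump holds 1 of several alternative a subunits, and Tcirg1 was by far the most abundant of them. Its share of the summed FPKM of Tcirg1, Atp6v0a1 and Atp6v0a2 was 86.5%, 84.3% and 87.6% in controls and 77.6%, 79.8% and 81.8% in mimics. All 3 mimics were below all 3 controls, mimic 3 included (86.1% ± 1.65 and 79.7% ± 2.08, SD, n = 3; exact two-sided permutation test, p = 0.10, the smallest possible; adjusted p = 0.30 over 9 ratios). After the correction the share was 84.9% and 81.2% on average. The groups still did not overlap, but only narrowly, with 82.5% in negative control 2 and 82.4% in mimic 3. Atp6v0a2 read 5.93, 6.18 and 4.36 FPKM in controls and 7.71, 7.09 and 6.73 in mimics (log2 fold change 0.34), wholly higher. Atp6v0a1 overlapped (2.85 ± 0.139 and 3.29 ± 0.852 FPKM, SD, n = 3).

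**Figure D2:**
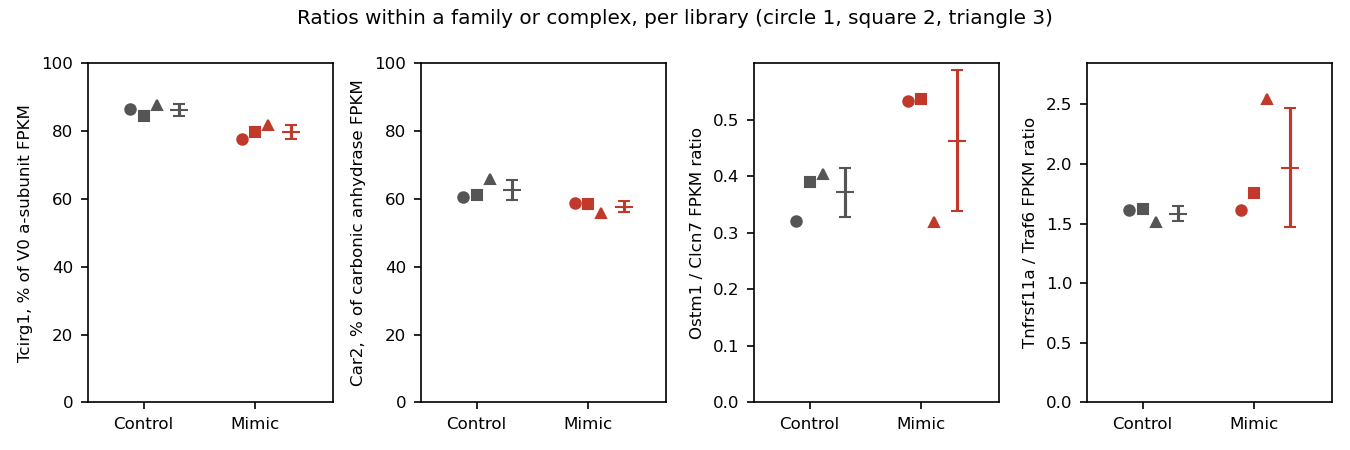
Shares and ratios of FPKM (vertical axes, from 0) in each control (grey) and mimic (red) library, with the mean ± SD beside each group. The Tcirg1 share of the a subunits lies at 84.3% to 87.6% in controls and 77.6% to 81.8% in mimics, while the Ostm1 to Clcn7 ratio of mimic 3 falls among the controls.

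Other subunits of the pump went both ways. Of 17 listed, all 17 were tested and 0 passed limma, and the median was 0.064. Before adjustment 0 were higher at p under 0.05 and 3 lower, against 7.96% and 5.26% of all tested genes. Tcirg1 is not in this list. Atp6v1g1, a subunit of the pump's stalk, read 99.6, 111.1 and 104.5 FPKM in controls and 69.3, 80.6 and 71.5 in mimics (log2 fold change −0.51, SE 0.11, limma adjusted p = 0.333; −0.44 after the correction). Atp6v0b, a subunit of the membrane ring, read 73.2, 75.7 and 83.6 FPKM and 52.6, 56.0 and 66.6 (−0.41, SE 0.13, limma adjusted p = 0.333; −0.18 after the correction). In both the mimics lay wholly below the controls, and in the other of the 3, Atp6v1f, the groups overlapped. Of the 17, 2 lay wholly below the controls and 2 wholly above, where 7.49% and 12.6% of all tested genes did. Without negative control 3, 3 of the 17 were called higher and 2 lower, near the 11.5% and 12.1% of all tested genes. Atp6v1g1 was among the latter (−0.51, limma adjusted p = 0.0140), and with the correction as well it missed the threshold (−0.39, limma adjusted p = 0.0665).

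Clcn7 (ENSMUSG00000036636, chromosome 17, 25133391 to 25162104, plus strand) varied little. It read 13.2, 13.3 and 11.8 FPKM in controls and 13.6, 13.1 and 14.7 FPKM in mimics. The groups overlapped within a narrow range. The means were 12.7 ± 0.797 and 13.8 ± 0.794 FPKM (SD, n = 3), with a log2 fold change of 0.11 (SE 0.11, 95% interval −0.15 to 0.36, limma adjusted p = 0.695). The gene carries the 7mer-A1 site shown above, and the 95% interval reaches down to −0.15 on the log2 scale. After the GC and length correction the estimate was 0.16 (limma adjusted p = 0.725). With negative control 3 left out as well it was 0.24 (unadjusted 95% interval 0.032 to 0.44, limma adjusted p = 0.166). Among the CLC genes Clcn3, an endosomal exchanger, was more abundant, at 26.4, 26.5 and 45.9 FPKM in controls and 37.7, 39.2 and 40.1 in mimics (log2 fold change 0.29, SE 0.21; −0.047 after the correction). Negative control 3 was its highest library, and without it Clcn3 passed (0.54, limma adjusted p = 0.00648), where 11.5% of all tested genes were called higher. Clcn4 stood at 0.28 (SE 0.13), with the mimics wholly above the controls. Of 7 listed 5 were tested and 0 passed (median 0.14).

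Ostm1 (ENSMUSG00000038280, chromosome 10, 42583822 to 42702459, plus strand), which stabilises ClC-7 in lysosomes, read 4.22, 5.16 and 4.77 FPKM in controls and 7.26, 7.02 and 4.67 FPKM in mimics. Mimics 1 and 2 were above every control and mimic 3 was among them. The means were 4.72 ± 0.472 and 6.32 ± 1.43 FPKM (SD, n = 3), a ratio of 1.34 and a log2 fold change of 0.34 (SE 0.18, 95% interval −0.073 to 0.75, limma adjusted p = 0.445). Without mimic 3 the estimate was 0.51 (limma adjusted p = 0.274), and after the GC and length correction it was 0.20. Relative to its partner, the Ostm1 to Clcn7 ratio was 0.321, 0.389 and 0.403 in controls and 0.533, 0.536 and 0.318 in mimics, which did not separate the groups (exact two-sided permutation test, p = 0.40). Of the exon bases of Ostm1 5.69% are shared with an antisense gene that was not among the rows. Without a stated strand setting, reads of the 2 cannot be told apart there. The same holds for 6.75% of the exon bases of Acp5.

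Acp5 (ENSMUSG00000001348, chromosome 9, 22126727 to 22135711, minus strand), the TRAP gene, had the largest estimate and the widest spread of the 8. It read 3.79, 4.07 and 5.63 FPKM in controls and 2.25, 2.26 and 4.42 FPKM in mimics. Mimics 1 and 2 were the lowest of the 6 libraries, and mimic 3 lay above negative controls 1 and 2. Between libraries of the same number Acp5 was lower with the mimic each time, by log2 differences of −0.56, −0.64 and −0.29. No label gives these libraries as pairs. The means were 4.50 ± 0.989 and 2.98 ± 1.25 FPKM (SD, n = 3), a ratio of 0.662 and a log2 fold change of −0.50 (SE 0.24, 95% interval −1.06 to 0.064, limma adjusted p = 0.418). These levels rested on 66 to 168 fragments per library, the fewest of the 8. In each group library 3 was the highest. Without mimic 3 the estimate was −0.74 (limma adjusted p = 0.274). After the correction it was −0.27, and with negative control 3 left out as well 0.0057.

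Genes of fusion and resorption gave 0 calls among 8 tested of 14 listed, with 0 at p under 0.05 before adjustment and a median of 0.048. The 2 with the smallest p were Slc4a2, the bicarbonate-chloride exchanger that works with carbonic anhydrase 2 (log2 fold change −0.33, SE 0.17), and the tetraspanin Cd9 (−0.24, SE 0.12). Cd9 read 348 to 370 FPKM in mimics and 397 to 477 in controls, and under quantile normalization its log2 fold change was −0.0057. Of the 8, 1 lay wholly below the controls (Cd9) and 1 wholly above, where 7.49% and 12.6% of all tested genes did. Mmp14 was not among the rows.

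**Figure D3:**
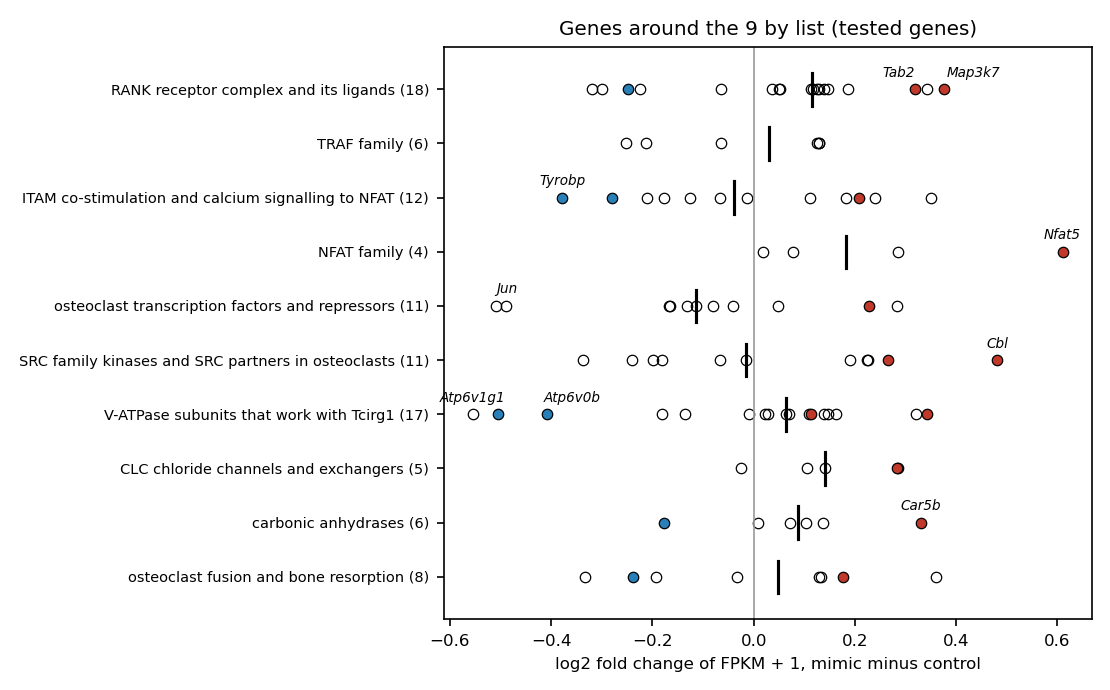
Log2 fold change of FPKM + 1 (horizontal axis, mimic minus control) of each tested gene in 10 lists around the pathway, with the number tested in brackets and a vertical bar at the median. Filled points are genes whose 3 mimic values lie wholly above (red) or below (blue) the 3 control values. Medians lie between −0.11 and 0.18, and each list but the TRAF family holds at least 1 separated gene. Of all tested genes 12.6% lie wholly above and 7.49% wholly below.

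Comparing the 8 tested genes, mimic 3 often departed from the other mimics. In Traf6, Ostm1, Acp5 and Tcirg1, mimics 1 and 2 lay close together and stood outside the control range, while mimic 3 lay inside it or, for Traf6, below it. Traf6 and Ostm1 were high in mimics 1 and 2, and Acp5 and Tcirg1 low. Tnfrsf11a and Car2 kept mimic 3 on the side of the other mimics. Negative control 3 sat closer to the mimic mean than to its own group's remaining pair in 3 of the 9 genes (Traf6, Nfatc1 and Src).

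The estimates also went with base composition. Over all tested genes the median log2 fold change was 0.21 for transcripts under 45% GC (2902 genes), 0.082 at 45 to 50% (2688), −0.052 at 50 to 55% (2516) and −0.16 from 55% (2022). The 3 members of lowest GC, Traf6 (45.7%), Ostm1 (46.2%) and Tnfrsf11a (47.9%), had positive estimates. The 2 of highest GC, Acp5 (55.9%) and Tcirg1 (58.6%), had negative ones. Nfatc1 (53.7%) and Clcn7 (54.5%) were positive, and Car2 (49.1%) was negative. After the correction all 8 lay between −0.27 (Acp5) and 0.27 (Tnfrsf11a), and Traf6 turned to −0.075. The part of GC in each single estimate was not tested beyond this removal.

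**Figure D4:**
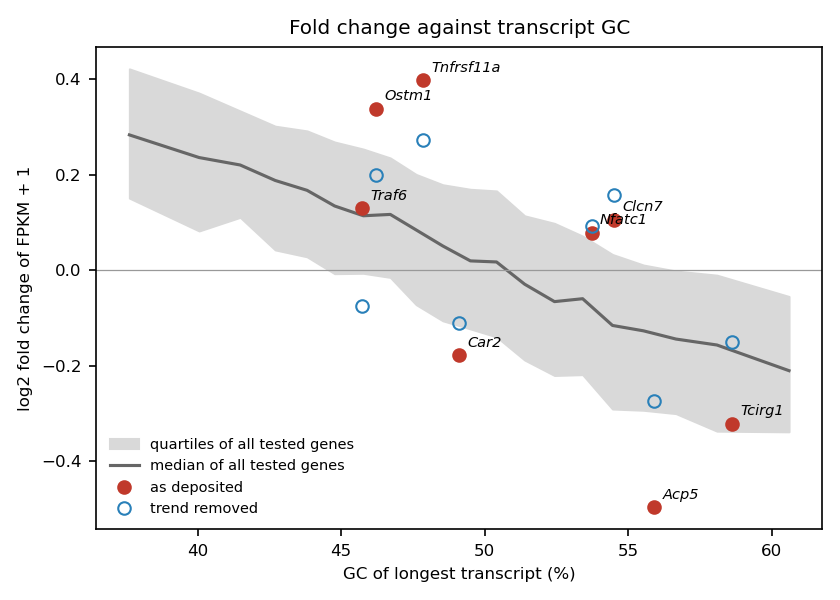
Log2 fold change of FPKM + 1 (vertical axis) against GC of the longest transcript in percent (horizontal axis). The line and band are the median and quartiles of all tested genes in 20 bins of GC, filled points the 8 genes as deposited and open points the same after the correction. As deposited, Tnfrsf11a, Ostm1, Clcn7 and narrowly Nfatc1 lie above the band, Acp5 and Car2 below it, and Traf6 and Tcirg1 within it.

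**Figure D5:**
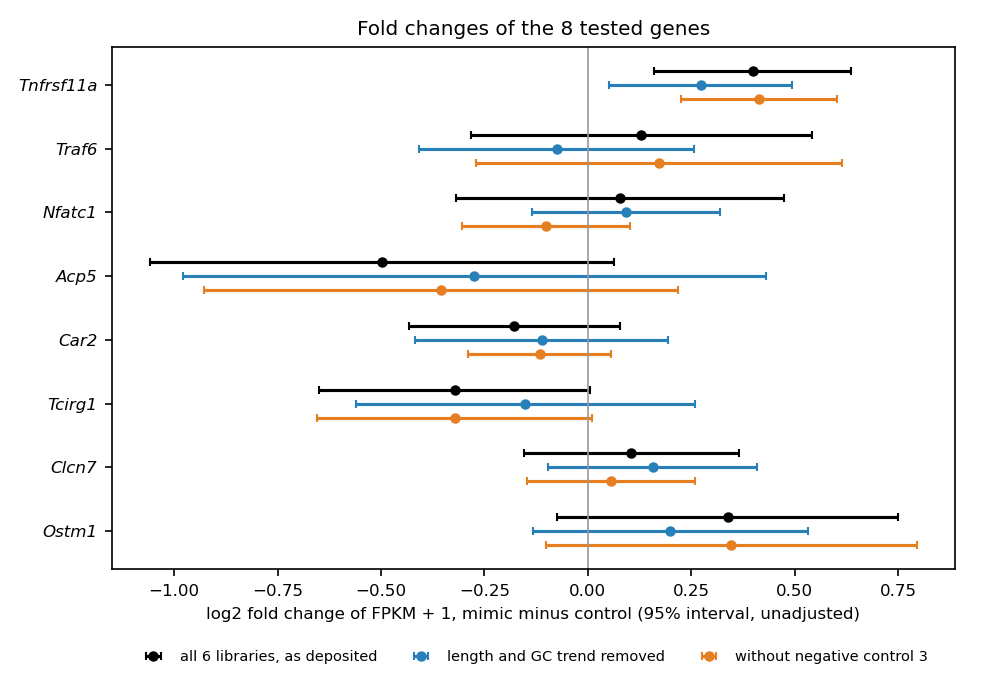
Log2 fold changes of FPKM + 1 (horizontal axis) of the 8 tested genes with unadjusted 95% intervals, for all 6 libraries as deposited (black), after the GC and length correction (blue) and without negative control 3 (orange). Tnfrsf11a has the intervals that lie wholly above 0 under all 3 settings, and those of the other 7 genes include 0.

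The genes most alike in pattern over the 6 libraries were found by Pearson's r of log2(FPKM + 1) among tested genes. With 6 libraries such values are high for many genes, 15 (Car2) to 365 (Nfatc1) of them above 0.95, so they describe these libraries only. Tnfrsf11a was closest to Ccdc66 (0.999) and Trappc11 (0.998), Traf6 to Ccdc14 and Sgo1 (both 0.988), and Nfatc1 to Lss (0.997) and Usp4 (0.996). Acp5 was closest to 2900093K20Rik (0.999) and H2-D1 (0.993), Car2 to Hcst (0.990) and Caml (0.979), and Tcirg1 to Gramd1a (0.985) and Slc25a28 (0.980). Clcn7 was closest to Baz2a (0.999) and Usp2 (0.989), and Ostm1 to Rcbtb1 (0.996) and Pla2g4a (0.993).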

How the data were processed

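The deposited table holds 1 FPKM value per gene and library, made by the authors. The submitters' processing notes name the tools fastp, HISAT2 and DESeq2, and the build mm10. Versions, annotation, counting, strand setting and the table's filter were not given in the sources used here. Of 16665 Ensembl identifiers 16582 were found in GENCODE M21 (GRCm38, the assembly mm10 names), which gave symbols, exon lengths and 3′ UTRs. Groups came from the sample titles.

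Depth was recovered from FPKM and exon length: of values of at most 20 fragments, 98.5% to 99% were within 0.1 of a whole fragment. The 10166 genes averaging 1 FPKM or more entered a fit of log2(FPKM + 1) by limma 3.58.1 (R 4.3.3), with its mean-variance trend, Benjamini-Hochberg adjustment and a threshold of 0.05. That scale understates changes of low genes. SE is that of the moderated fit. The fit was tested on simulated data. Genes changed there by 0.5 on the log2 scale were called in 11.9% of cases (n = 67). Those changed by 1 were called in 83.6% (n = 67). For the trend on length and GC, each library's deviations from the gene mean were fitted with splines of 4 degrees of freedom and the fit subtracted. No label says that library numbers pair the samples. Deviations from the group means correlated at 0.287, 0.183 and 0.339 for numbers 1, 2 and 3, and mimic 1 correlated with negative control 2 at 0.308. These correlations do not settle whether equal numbers mark a pair. The reported fit has no block.

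The 9 genes, the 10 lists and the alternatives were chosen with earlier results of these data known. All 9 genes are described. From each list the 2 other tested genes with the smallest p are named, since none passed, and for each tested member the 2 genes most alike.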

Additional observations from a re-analysis of the deposited data

How the results depend on the processing

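Over all tested genes limma called 0 as deposited and 0 with the replicate block, which pairs libraries by number and changed no call. It called 5276 with library weights (51.9%), which gave negative control 3 a weight of 0.086, and 299 (2.93%) after the GC and length correction with negative control 3 left out. With 1 library left out it called 0 to 2412, the highest without negative control 3 (23.7%). Of the 9 genes 5 passed with library weights (Tnfrsf11a, Traf6, Acp5, Tcirg1 and Ostm1), and 0 to 1 with 1 library left out. The cause of these differences was not tested. The difference of Src lay between −0.0074 (without mimic 3) and 0.092 with 1 library left out, and depended on scale: 0.058 with a pseudocount of 1, 0.31 with 0.1 and 0.78 by voom. Directions turned after that correction for Traf6 (−0.075) and Clcn3 (−0.047), and for the Clcn7 share of the CLC genes from −1.96 to 2.64 percentage points. With the correction and negative control 3 left out they turned for Traf6 (−0.038), Acp5 (0.0057), Car2 (0.028), Tcirg1 (0.0056), Traf7 (0.12), Nfatc3 (−0.0038), Atp6v0b (0.0067) and Car13 (−0.13). With library weights Nfatc1 (−0.059) and Car13 (−0.078) turned, and leaving out 1 library Nfatc1 ranged from −0.10 (without negative control 3) to 0.17, and the Src share from −0.0206 (without mimic 3) to 0.201 percentage points. None of the turned values passed limma where it was tested. Of 128 alternative values of the 8 tested genes 115 kept direction and side of the threshold, 6 newly passed and 7 turned. Tnfrsf11a kept its direction in all alternatives (0.27 to 0.43, limma adjusted p from 0.000398 to 0.772). Searching any annotated protein-coding transcript again gave 4 genes with a seed site.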
